A study of Homo sapiens with 3 samples.

Results

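The pentose phosphate pathway enzymes described here are 9 genes, chosen by name from the deposited table: PGLS, PGD and H6PD of the oxidative branch, TALDO1, TKT, RPIA and RPE of the non-oxidative branch, and the phosphoribosyl pyrophosphate (PRPP) synthetases PRPS1 and PRPS2. All 9 were found among the 29960 genes of the table, and all 9 were among the 14846 genes tested. The data are poly-A RNA-Seq of 5637, an established human bladder cancer line. The groups are parental cells, labelled WT, and a gemcitabine-resistant derivative of the same line. Each library comes from a single-cell clone, so a difference between libraries is also a difference between clones. The labels give both groups as untreated when RNA was taken, and both were grown in RPMI medium with serum. The labels call the selecting exposure acute, while the study's methods describe repeated exposure at rising doses followed by culture without the drug. The values given here come from 3 labelled libraries, of which 1 is parental and 2 are resistant.

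The pentose phosphate pathway branches from glycolysis at glucose phosphate. Its oxidative branch makes NADPH, the reducing agent used for lipid synthesis and for glutathione, together with ribulose phosphate. Its non-oxidative branch interconverts sugar phosphates and links ribose phosphate back to glycolysis. The PRPP synthetases then activate ribose phosphate for purine, pyrimidine and NAD synthesis. Gemcitabine is a deoxycytidine analogue that competes with the cell's own deoxycytidine nucleotides. The question put to these genes was whether their RNA differed between resistant and parental cells.

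Gene counts summed to 14475531 reads for the parental clone and to 15836788 and 17461941 for resistant clones 1 and 2. Counts were scaled to library size as CPM with edgeR's TMM factors, and levels were compared between genes on the authors' FPKM scale, which also divides by gene length. The urothelial and epithelial markers checked were all read, with a lowest level of 3.99 FPKM, and of these KRT5, a basal keratin, was the gene called, at 104.5, 3.99 and 5.43 FPKM in the parental library and resistant libraries 1 and 2 (edgeR adjusted p = 0.0024). Its log2 ratio was -4.52 in this fit and -2.49 by the authors' group means. Endothelial and blood markers lay at or below 0.806 CPM in every library. Of the fibroblast markers COL1A1 and COL1A2 were read, between 9.05 and 16.3 FPKM, and LUM had no read. Across all genes tested, edgeR's quasi-likelihood test called 91 genes at an adjusted p under 0.05, or 0.613%, of which 21 were higher and 70 lower in resistant cells. With total counts as the only scaling it called 97 higher and 135 lower. The test has 1 residual degree of freedom, from the 2 resistant clones, and the lone parental clone is assumed to vary like them. The spread of each gene is also moderated across genes, with a median of 7.34 prior degrees of freedom.

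None of the 9 enzymes was called by edgeR at an adjusted p under 0.05, and DESeq2 on the same libraries also called none. By edgeR's unadjusted p under 0.05, 2 of the 9 were below it, H6PD and TALDO1, and both lay lower in the resistant line. Of all genes tested, 9.58% were below this p in either direction and 4.88% were lower in the resistant line, and DESeq2 had the same 2 members below it. The members' median log2 fold change was -0.01, against 0.03 for all genes tested, with 4 members above 0 and 5 below. Their median size of change was 0.10, against 0.34 for all genes tested. In simulated data with 1 library against 2, edgeR called 3 of 100 genes with a 2-fold change and 62 of 100 with a 4-fold change. A gene that was not called here may therefore still differ. For bulk RNA of a clone, fewer cells expressing a gene and less RNA per cell cannot be told apart.

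The promoters of the 3 members with the lowest fitted log2 fold changes, resistant over parental, are shown here as genomic context, each as the 250 bases upstream of the RefSeq start in GRCh38.p14 on the plus strand, 5′ to 3′. The RNA-Seq positions given further on are those of the deposited table, which per the labels uses hg19, and the builds are not mixed. Capitals mark matches, on either strand, to GGGCGG, the GC box, or to TGACNNNGC, the core of the antioxidant response element. These matches do not overlap in the sequences shown. The windows are chr11:747214-747463 for TALDO1, chr1:9239597-9239846 for H6PD and chr1:10398814-10399063 for PGD.
TALDO1: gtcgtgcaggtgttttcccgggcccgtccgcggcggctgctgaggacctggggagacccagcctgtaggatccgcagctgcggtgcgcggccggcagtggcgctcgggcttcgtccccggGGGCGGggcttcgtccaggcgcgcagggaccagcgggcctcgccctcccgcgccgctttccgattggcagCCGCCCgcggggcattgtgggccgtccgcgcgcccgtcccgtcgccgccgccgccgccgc
H6PD: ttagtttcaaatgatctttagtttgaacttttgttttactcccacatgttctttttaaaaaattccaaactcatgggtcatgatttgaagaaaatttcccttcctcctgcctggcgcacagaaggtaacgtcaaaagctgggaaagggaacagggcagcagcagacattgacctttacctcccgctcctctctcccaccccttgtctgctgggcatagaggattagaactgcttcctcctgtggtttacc
PGD: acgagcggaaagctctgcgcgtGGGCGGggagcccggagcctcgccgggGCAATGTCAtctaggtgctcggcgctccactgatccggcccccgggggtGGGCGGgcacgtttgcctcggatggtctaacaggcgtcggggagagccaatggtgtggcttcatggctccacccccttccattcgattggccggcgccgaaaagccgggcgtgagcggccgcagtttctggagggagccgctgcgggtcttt
TALDO1 held 2 matches to GGGCGG, PGD held 2 and H6PD none, and the TALDO1 window was 78.4% G and C against 44.8% for H6PD. The windows were not matched to the starts in the deposited table, and that of H6PD may lie at another start of the gene. GGGCGG was found in the promoters of 7 of the 9 members and in 42.6% of 35116 RefSeq promoters of the same length. TGACNNNGC was found in 2 of the 9, PGD and RPE, and in 10.9% of all promoters. No member's window held TATAAA or CACGTG, found in 10.7% and 6.34% of all. A match describes the letters in this window and shows no binding.

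The levels of the 9 genes spanned a wide range on the FPKM scale. PGD was read at 182.6 FPKM in the parental library, 164.9 in resistant library 1 and 66.0 in resistant library 2. TALDO1 followed at 171.9, 104.6 and 86.2 FPKM, and TKT at 57.7, 65.7 and 55.8 FPKM. This order depends on the deposited gene lengths, 7286 bases for TKT against 1959 for PGD and 1346 for TALDO1. By CPM, which does not divide by length, TKT was the highest of the 9 in every library (431.3, 463.7 and 408.9). PGD, TALDO1 and TKT held 75.9%, 70.5% and 61.6% of the members' summed FPKM in the same order of libraries. PRPS1, PGLS and PRPS2 came next in the order of levels, between 24.0 and 48.1 FPKM, and RPIA and RPE lay between 17.8 and 21.2 FPKM. H6PD was far below them, at 3.70, 1.55 and 2.06 FPKM. Neighbours in this order whose ranges over the 3 libraries overlapped were PGD with TALDO1, PRPS1 with PGLS, PGLS with PRPS2, and RPIA with RPE. Among genes tested, PGD stood above 98.3% in the parental library and H6PD above 38.0%. Summed over the members, the level was 543.3 FPKM in the parental library, 475.1 in resistant library 1 and 337.7 in resistant library 2.

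**Figure D1:**
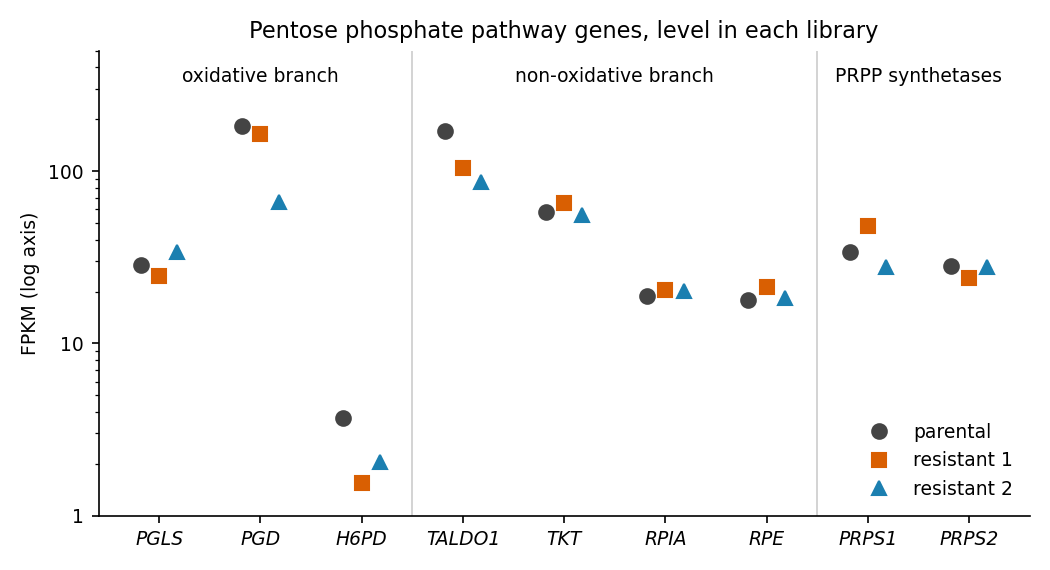
Level of each of the 9 genes in FPKM (log axis), with 1 point for each library and no error bars, since each point is a single library. For TALDO1 and H6PD both resistant points lie under the parental point, and PGD lies at 66.0 FPKM in resistant library 2 against 164.9 and 182.6 in the other two.

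Of the oxidative branch, PGD, the decarboxylating dehydrogenase that yields NADPH and ribulose phosphate, differed mainly between the resistant clones. PGD (ENSG00000142657, chromosome 1, 10458649 to 10480201, plus strand) had 5179 reads in the parental library, 5115 in resistant library 1 and 2257 in resistant library 2, or 367.2, 313.1 and 129.9 CPM. Resistant library 1 was therefore near the parental library, at 85.3% of its CPM (95% exact binomial interval 82.0 to 88.6), and resistant library 2 stood apart at 35.4% (33.7 to 37.2). These intervals, as all those given for ratios of 2 libraries, cover counting error only. Resistant library 2 was 2.41-fold below resistant library 1 (interval 2.29 to 2.53). PGD was the single member past 2-fold between the resistant libraries, a size reached by 10.6% of all genes tested. The fitted log2 fold change, resistant over parental, was -0.73 with a standard error of 0.49 (edgeR adjusted p = 0.73), and its 95% interval ran from -1.85 to 0.39. It rests on resistant library 2, since the log2 ratio to the parental library was -1.50 in that library and -0.23 in resistant library 1. As the authors' mean, PGD had 4832 normalized counts in parental and 3832 in resistant cells, with a log2 ratio of -0.33.

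H6PD, the dehydrogenase of the endoplasmic reticulum that makes NADPH inside that compartment, lay lower in both resistant libraries. H6PD (ENSG00000049239, chromosome 1, 9294834 to 9331396, plus strand) had 490 reads in the parental library and 225 and 329 in the resistant libraries. Scaled for depth these were 34.7, 13.8 and 18.9 CPM. The resistant values were at 39.6% of the parental value in library 1 (interval 33.7 to 46.5) and at 54.5% in library 2 (47.3 to 62.8). The fitted log2 fold change was -1.09 with a standard error of 0.39 and an interval from -1.97 to -0.20 (edgeR unadjusted p = 0.022, adjusted p = 0.41). The authors' mean was 387.5 normalized counts for parental and 219.5 for resistant cells, and the log2 ratio of these means was -0.82.

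PGLS, the lactonase between the dehydrogenase steps, was read on either side of its parental value. PGLS (ENSG00000130313, chromosome 19, 17622438 to 17632097, plus strand) had 46.9 CPM in the parental library, 38.4 in resistant library 1 and 54.6 in resistant library 2, from 662, 628 and 949 reads. The fitted log2 fold change was -0.01 (standard error 0.37, edgeR adjusted p = 1.00), with an interval from -0.86 to 0.84, and the sign turned to 0.04 with total counts as the only scaling. The authors' group means, 659.0 and 667.0 normalized counts, gave 0.02. The ratio of PGD to PGLS on the FPKM scale was 6.39 in the parental library, 6.66 in resistant library 1 and 1.94 in resistant library 2.

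In the non-oxidative branch TALDO1 stood apart from its partner enzymes. Transaldolase, its product, and transketolase, the product of TKT, move carbon units between sugar phosphates and together connect ribose phosphate to glycolysis. TALDO1 (ENSG00000177156, chromosome 11, 747329 to 765024, plus strand) had 3350 reads in the parental library and 2229 and 2026 in the resistant libraries, or 237.5, 136.4 and 116.6 CPM. Both resistant libraries lay below the parental library, at 57.4% (interval 54.4 to 60.6) and 49.1% (46.4 to 51.9) of its value, and resistant library 2 was at 85.5% of resistant library 1 (80.5 to 90.8). The fitted log2 fold change was -0.91 with a standard error of 0.32 and an interval from -1.65 to -0.17 (edgeR unadjusted p = 0.022, adjusted p = 0.42). Means given by the authors were 3083 normalized counts for parental and 1828 for resistant cells, with a log2 ratio of -0.75.

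For TKT the libraries were close together. TKT (ENSG00000163931, chromosome 3, 53258723 to 53290068, minus strand) had 431.3 CPM in the parental library and 463.7 and 408.9 in the resistant libraries, from 6084, 7576 and 7103 reads. The parental value lay between the resistant values, and the fitted log2 fold change was 0.02 (standard error 0.35, edgeR adjusted p = 1.00), with an interval from -0.79 to 0.82. The ratio of TALDO1 to TKT on the FPKM scale was accordingly 2.98 in the parental library and 1.59 and 1.54 in the resistant libraries. RPIA, the isomerase that makes ribose phosphate, was the steadiest member, at 35.7, 36.4 and 37.3 CPM from 504, 594 and 648 reads. RPE, the epimerase that makes xylulose phosphate, was read at 47.0, 52.9 and 47.3 CPM from 663, 864 and 822 reads. The resistant libraries held at least the parental CPM of both genes. The fitted log2 fold changes were 0.04 for RPIA (chromosome 2, 88991162 to 89050452, interval -0.76 to 0.85) and 0.09 for RPE (chromosome 2, 210867289 to 210886300, interval -0.69 to 0.88). By the authors' group means RPIA had 468.4 normalized counts in parental and 545.5 in resistant cells (log2 ratio 0.22), and RPE had 739.2 and 730.8 (log2 ratio -0.02).

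**Figure D2:**
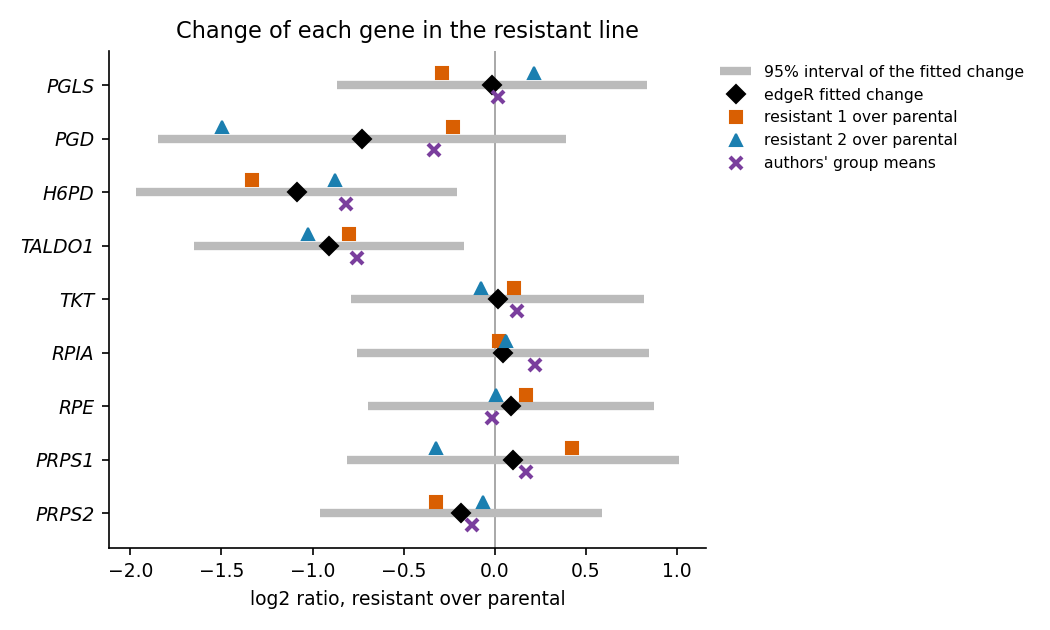
Log2 ratio of each gene, resistant over parental, with 0 as no difference. Diamonds are the edgeR fit and grey bars its 95% interval, squares and triangles are resistant libraries 1 and 2 over the parental library, and crosses are the authors' group means; the bars of H6PD and TALDO1 end at -0.20 and -0.17, and for PGD the resistant libraries lie at -0.23 and -1.50.

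The PRPP synthetases are encoded by a pair of closely related genes on the X chromosome. PRPS1 (ENSG00000147224, 106871737 to 106894256, plus strand) had 72.0 CPM in the parental library, 96.6 in resistant library 1 and 57.6 in resistant library 2, from 1015, 1579 and 1000 reads. Resistant library 1 was above and resistant library 2 below the parental level, at 134.3% (interval 124.0 to 145.5) and 80.0% (73.2 to 87.4) of it. PRPS2 (ENSG00000101911, 12809474 to 12842341, plus strand) had 73.0, 58.5 and 69.9 CPM from 1029, 955 and 1214 reads. For this gene resistant library 1 was the lowest, at 80.1% of the parental value (73.3 to 87.6), and the interval of resistant library 2 included the parental level (88.1 to 104.2). The synthetases therefore differed from each other in which resistant clone was higher, and PRPS1 over PRPS2 on the FPKM scale was 1.19 in the parental library, 2.00 in resistant library 1 and 1.00 in resistant library 2. The fitted log2 fold changes were 0.10 for PRPS1 (standard error 0.40, edgeR adjusted p = 0.98) and -0.18 for PRPS2 (standard error 0.34, edgeR adjusted p = 0.94). Their intervals ran from -0.81 to 1.01 and from -0.96 to 0.59. As the authors' mean, PRPS1 had 1138 normalized counts in parental and 1282 in resistant cells, and PRPS2 had 1062 and 973.7.

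Of the 9 members 2, TALDO1 and H6PD, were past 1.5-fold below the parental clone in both resistant clones, while 8.45% of all genes tested were lower and 9.3% higher by this rule. Both ratios share the parental library, so they are not separate evidence. By the authors' group means the same 2 members were lower by over 1.5-fold, as were 9.08% of all genes tested. The group means include the 3 libraries used here.

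Neighbouring genes were examined because differences in this comparison ran along stretches of chromosomes in earlier results of these data. For each member the genes tested whose start lay within 2.5 Mb of it were taken, and DNA was not measured. Around TALDO1, 60 of 69 neighbours, or 87.0%, lay lower in the resistant line, against 47.9% of all genes tested. Their median log2 fold change was -0.68, and 23 of the 69 were as low as TALDO1 or lower. Over the parental library their median log2 ratio was -0.87 for resistant library 1, -0.47 for resistant library 2, and -0.62 by the authors' group means. Between the resistant libraries the neighbours had a median of 0.39 (library 2 over library 1) and TALDO1 had -0.23. The nearest genes tested, TMEM80 and PDDC1, had log2 fold changes of -0.33 and -0.64, neither past an adjusted p of 0.05 (edgeR). How much of the TALDO1 difference goes with its region was not tested.

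H6PD and PGD lie 1.13 Mb apart, and 34 of the 44 neighbours of PGD are also neighbours of H6PD. Here the region differed between the resistant clones, with 37 of the 44 neighbours of PGD lower in resistant library 2 than in library 1 and a median log2 ratio of -0.53, while 50.7% of all genes tested were lower in library 2. PGD, at -1.27, went further than that median, and 5 of the 44 were as low. KIF1B and APITD1, on either side of PGD, had -0.66 and -0.55. H6PD went the other way, at 0.46, and 38 of its 39 neighbours had this ratio as low or lower. Against the parental library the median of the neighbours of H6PD was 0.00, while H6PD had a log2 fold change of -1.09, and 1 of the 39 was as low. The genes flanking it, GPR157 and SPSB1, had log2 fold changes of 0.68 and 0.59. For TALDO1, 23 of 69 neighbours were as low in this fold change, and both members lay within the range of their neighbours. How much of the H6PD difference goes with its region was not tested either.

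**Figure D3:**
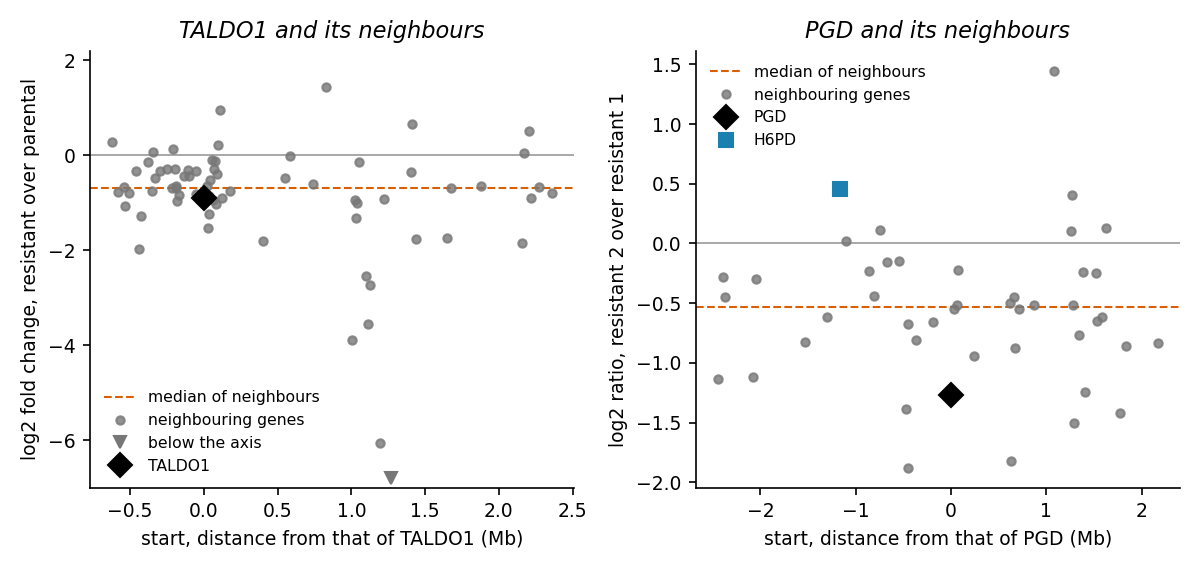
Left, edgeR log2 fold change of TALDO1 (diamond) and of the 69 genes tested within 2.5 Mb, by distance of their starts in Mb, with their median of -0.68 as a dashed line and a triangle for the 1 gene below -7, whose fitted value is no bound because it had no read in the resistant libraries. Right, log2 ratio of resistant library 2 over library 1 for PGD (diamond, -1.27), H6PD (square, 0.46) and the other genes within 2.5 Mb of PGD, with the median of -0.53 as a dashed line.

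PGLS and PRPS1 also had the sign of their surroundings between the resistant clones. Of 114 neighbours of PGLS, 97 were higher in resistant library 2, with a median log2 ratio of 0.64 against 0.51 for PGLS. Of 17 neighbours of PRPS1, 12 were lower in resistant library 2, with a median of -0.53 against -0.75 for PRPS1. Over the 9 members, 4 had the same sign as their neighbours' median in this ratio, and the windows of TKT, RPIA, RPE and PRPS2 had medians between -0.09 and 0.17.

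Reads of some members could be shared with other genes. In GENCODE 29 transcripts, 10.2% of the 50-base words of RPE occurred in other genes, nearly all in RPEL1, a copy with 1, 0 and 1 reads in the 3 libraries. The share was 5.81% for PGD, in the pseudogene PGDP1, 2.88% for PRPS1 and 0.388% for H6PD. TALDO1, TKT, PGLS, RPIA and PRPS2 had no shared word. RPE overlaps KANSL1L (214, 180 and 234 reads) on the opposite strand, and PGLS overlaps a pair of little-read genes there. Whether counting used strand is not given in the sources used here, so reads in those overlaps cannot be assigned with certainty.

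Other genes of the pathway were taken from a list of 14, of which 9 were tested. None was called by edgeR at an adjusted p under 0.05 or at an unadjusted p under 0.05, and DESeq2 called none. Their median log2 fold change was -0.04, with 4 above 0 and 5 below. PGM1 and PGM2, phosphoglucomutases, of which PGM2 also acts on pentose phosphates, were read higher in both resistant libraries. Their log2 ratios by the authors' group means were 0.39 and 0.51, smaller than the fitted values that follow. PGM1 had 17.1, 28.7 and 28.9 FPKM (log2 fold change 0.70, edgeR adjusted p = 0.58) and PGM2 9.67, 17.1 and 15.8 FPKM (0.71, adjusted p = 0.59), in the order parental, resistant 1, resistant 2. Across all genes tested, 9.3% were past 1.5-fold higher in both resistant libraries. DERA, the aldolase that breaks down deoxyribose phosphate, had 28.1, 23.8 and 12.3 FPKM, and TIGAR, a phosphatase that diverts glucose carbon into the pathway, 7.87, 8.35 and 4.04 FPKM. Both were lowest in resistant library 2, and 50.7% of all genes tested were lower in library 2 than in library 1. Chromosomal surroundings were examined for the 9 members and not for the listed genes. The regulatory partners of the PRPP synthetases, PRPSAP1 and PRPSAP2, had log2 fold changes of 0.12 and -0.04. The transketolase relatives TKTL1 and TKTL2 had at most 1 read in any library.

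Of the enzymes that use PRPP, 5 of 6 listed were tested, and none was called by edgeR at an adjusted p under 0.05 or by DESeq2. Their median log2 fold change was 0.44, with 4 of 5 above 0, while 47.9% of all genes tested lay below 0. NAMPT, which makes the NAD precursor from nicotinamide, was at 24.0, 43.2 and 43.4 FPKM (log2 fold change 0.79, edgeR unadjusted p = 0.046, adjusted p = 0.51). PPAT, the entry enzyme of purine synthesis, was at 6.77, 11.4 and 11.3 FPKM (log2 fold change 0.69). Across all genes tested, 9.3% were past 1.5-fold higher in both resistant libraries. For NAMPT and PPAT the parental library was the lowest, and the resistant libraries were close together. Their log2 ratios by the authors' group means were smaller, at 0.30 for NAMPT and 0.45 for PPAT. APRT, of adenine salvage, was at 79.8, 127.7 and 98.6 FPKM, and UMPS, of pyrimidine synthesis, at 20.6, 21.5 and 12.5 FPKM.

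Other sources of NADPH were represented by 12 genes, of which 11 were tested. None was called by edgeR at an adjusted p under 0.05 or by DESeq2. By edgeR 2 were below an unadjusted p of 0.05, both lower, where 4.88% of all genes tested were lower at this p. IDH1, the cytosolic isocitrate dehydrogenase, was at 41.5, 24.5 and 13.7 FPKM, a log2 fold change of -1.18 with a standard error of 0.39 (edgeR adjusted p = 0.37). IDH2, its mitochondrial counterpart, was at 96.8, 64.9 and 47.4 FPKM, a log2 fold change of -0.84 with a standard error of 0.34 (edgeR adjusted p = 0.48). For both genes the parental library was the highest and resistant library 2 the lowest, and the authors' group means gave log2 ratios of -0.77 and -0.66. ME1, the cytosolic malic enzyme, was at 3.32, 4.35 and 2.09 FPKM, and the folate enzyme MTHFD1 at 42.6, 45.4 and 35.2 FPKM. The list's median log2 fold change was -0.11.

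**Figure D4:**
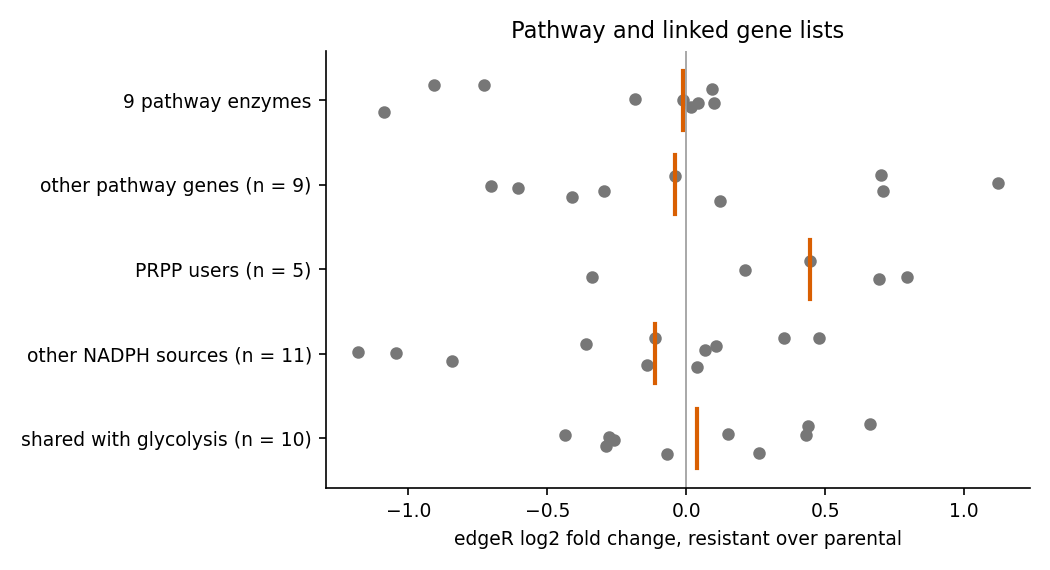
EdgeR log2 fold change, resistant over parental, of the 9 enzymes and of the genes tested in 4 linked lists, with 1 point for each gene and an orange bar at each median; vertical scatter only separates points. The medians are -0.01 for the 9 enzymes, -0.04 for other pathway genes, 0.44 for PRPP users, -0.11 for other NADPH sources and 0.04 for genes shared with glycolysis, and no point shown passed an adjusted p of 0.05.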

How the data were processed

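RNA of single-cell clones was sequenced by a commercial provider. The submitters' processing notes name CASAVA 1.8 and hg19, and the aligner, counting tool and annotation are not given in the sources used here. The table deposited by the authors holds raw read counts per library, FPKM values per library, which the authors obtained by dividing counts by gene length and library total, and the authors' mean of normalized counts per group, a signal without SD. Recomputed FPKM were within 0.1% for all genes with at least 10 reads. Columns of the authors' own fold changes and p-values were not used, nor were 6 columns of libraries that have no label here.

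Genes with at least 30 reads summed over the 3 libraries were tested with edgeR 4.0.16 (R 4.3.3; TMM, quasi-likelihood F test, Benjamini-Hochberg adjustment), and DESeq2 1.42.0 was an alternative. Standard errors are the fold change divided by the root of F. Log2 ratios of single libraries used CPM after 0.5 reads were added, and those of group means a pseudocount of 1. Percents, folds and their intervals, and ratios on the FPKM scale, had nothing added. Clones are the replicates. The p-values rest on the spread between 2 resistant clones, moderated across genes. Of 64 listed genes, 57 were matched by symbol, 4 by identifier, and 3 were not found. Named genes were the members, listed genes, the nearest genes tested and markers. The members and lists were chosen with earlier results of these data known. Scripts were tested on simulated data. Python 3.11.15, pandas 2.3.3, scipy 1.17.1 and matplotlib 3.10.9 were used, and promoters came from RefSeq, matched for all 9 genes.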

Additional observations from a re-analysis of the deposited data

How the results depend on the processing

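None of the 9 enzymes and none of the genes of the 4 linked lists was called under any of the 6 alternatives to the edgeR setting. The number of genes called moved from 91 to 248 with DESeq2, to 0 without a filter on low counts (edgeR, with 1261 genes at an unadjusted p under 0.05) and to 232 with total counts as the only scaling, the last chosen after seeing the data. The log2 fold change of PGLS turned from -0.01 to 0.040 with total counts. No member passed 2-fold in both resistant libraries, so that count went from 2 to 0, and it lay between 2 and 3 when resistant library 2 or 1 was left out, PGD being the added gene without library 1. Leaving out resistant library 1 or 2 gave log2 ratios of -0.87 and -1.33 for H6PD, -1.03 and -0.80 for TALDO1, and -1.50 and -0.23 for PGD. The log2 ratio of RPIA was 0.04 in the 3 libraries and 0.22 by the group means. Of 27 alternative medians of neighbours 9 moved beyond the spread between the resistant libraries, in the windows of TKT, RPIA, RPE and PRPS2. No paired analysis was made, because the study describes the clones as derived independently and the labels name no pairs. The single parental library gives no spread within its group. Depth limits H6PD most, with 225 to 490 reads and the widest counting intervals among the members relative to the ratio itself.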

Other observations

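Genes of glycolysis that share intermediates with the pathway were listed with 11 names, of which 10 were tested. None was called by edgeR at an adjusted p under 0.05 or at an unadjusted p under 0.05, and DESeq2 called none. HK2, an inducible hexokinase, was at 20.2 FPKM in the parental library and 29.1 and 37.3 FPKM in the resistant libraries (log2 fold change 0.66, edgeR adjusted p = 0.64). The log2 ratio of HK2 by the authors' group means was 0.41. GAPDH was at 508.6, 539.4 and 329.2 FPKM, and TPI1, triose phosphate isomerase, at 247.6, 240.0 and 142.4 FPKM. Both were near the parental level in resistant library 1 and lowest in resistant library 2. The log2 ratio of resistant library 2 over library 1 was -0.66 for GAPDH and -0.70 for TPI1, and 50.7% of all genes tested were lower in library 2. The chromosomal surroundings of these genes were not examined. GPI, which stands at the branch point of both pathways, was at 64.8, 57.0 and 71.1 FPKM. FBP1, which reverses a step of glycolysis, had at most 3 reads in any library.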
